A study of Mus musculus with 16 samples.

Results

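The genes Defa2, Defa29, Gm15292, Gm7861, AY761184 and Gm14851 belong to the mouse alpha-defensin cluster and had no real-time PCR assay named for them in the study. They are 6 of the 41740 gene names in the count tables of 16 ileal libraries, were taken by name, and had been selected on the counts of these same libraries. Their levels and differences between the groups are therefore given as a description. Where members that passed an adjusted p are counted, the count describes the fit and is no independent test. Total RNA of the whole ileal wall had been sequenced from male C57BL/6J STAM mice, a model of diabetes with fatty liver disease and liver tumours made by a streptozotocin injection at 2 days of age and high-fat feeding from 4 weeks. Every mouse carried a floxed insulin receptor gene and was sampled at 20 weeks. The Control-STAM-nonINS group (n = 4) lacked Cre and received no insulin. The Control-STAM-INS group (n = 6) lacked Cre and was injected with insulin 2 times a day from 6 weeks of age, at a dose raised by blood glucose up to 12 U/kg. The ieIRKO-STAM-INS group (n = 6) received insulin and carried Cre under the Villin promoter, which acts in the intestinal epithelium and leaves muscle, vessels and immune cells of the wall untouched.

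Alpha-defensins, known in the mouse as cryptdins, are small antimicrobial peptides rich in cysteine that Paneth cells at the base of the intestinal crypts release into the lumen. They are made as precursors whose leader is cut off, in the mouse by the protease matrilysin, the product of Mmp7. The cryptdin-related sequence (CRS) peptides share that leader but carry a different arrangement of cysteines in the mature part. The genes stand side by side on chromosome 8 as copies of one another, so that counts for one copy can hold reads of another.

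The 6 genes fell into both kinds by their reference sequence. In the GENCODE annotation of GRCm38, Defa2 (ENSMUSG00000096295) lay at chr8:21378515-21379495 and Gm15292 (ENSMUSG00000074441) at chr8:21249754-21250556, both on the plus strand, with 95 and 93 codons and 6 cysteine codons each. The other 4 lay on the minus strand with 116 codons and 11 cysteine codons each. These were Gm14851 (ENSMUSG00000061958) at chr8:21095074-21096050, Defa29 (ENSMUSG00000074437) at chr8:21325887-21327020, Gm7861 (ENSMUSG00000079113) at chr8:21593375-21594508 and AY761184 (ENSMUSG00000058618) at chr8:21702519-21703645. All 6 are annotated as protein coding. RefSeq lists Gm7861 as Defa43 and Gm14851 as Defa38. Within the defensin window, which runs from chr8:21025545-21735471, 5 of the 28 coding genes lay on the minus strand, and the fifth of them was Gm7849.

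The part of the coding sequence that follows the first 55 codons is printed for all 6 genes because it separates the kinds, with in-frame cysteine codons in capitals and all other bases in lower case.
Defa2: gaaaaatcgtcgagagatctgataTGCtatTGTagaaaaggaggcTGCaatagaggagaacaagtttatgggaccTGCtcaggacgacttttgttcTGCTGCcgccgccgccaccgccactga
Gm15292: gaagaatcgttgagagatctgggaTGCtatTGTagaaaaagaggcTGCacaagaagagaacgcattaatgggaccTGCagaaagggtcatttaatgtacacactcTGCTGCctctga
Gm7861: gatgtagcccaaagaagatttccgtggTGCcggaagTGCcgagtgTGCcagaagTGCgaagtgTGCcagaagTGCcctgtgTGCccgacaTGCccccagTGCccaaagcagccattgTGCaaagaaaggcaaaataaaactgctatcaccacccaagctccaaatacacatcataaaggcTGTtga
Defa29: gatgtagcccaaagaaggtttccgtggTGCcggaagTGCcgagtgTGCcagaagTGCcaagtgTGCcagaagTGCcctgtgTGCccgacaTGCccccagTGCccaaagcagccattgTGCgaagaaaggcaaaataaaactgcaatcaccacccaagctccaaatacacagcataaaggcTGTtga
AY761184: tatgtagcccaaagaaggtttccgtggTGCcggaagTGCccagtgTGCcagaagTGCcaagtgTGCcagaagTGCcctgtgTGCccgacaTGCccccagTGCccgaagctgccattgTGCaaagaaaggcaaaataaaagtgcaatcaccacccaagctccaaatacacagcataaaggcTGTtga
Gm14851: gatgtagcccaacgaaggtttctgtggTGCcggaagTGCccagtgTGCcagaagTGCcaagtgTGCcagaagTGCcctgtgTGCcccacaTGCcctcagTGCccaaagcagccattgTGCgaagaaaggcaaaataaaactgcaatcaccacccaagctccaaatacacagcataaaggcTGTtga

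In each of the 4 minus-strand genes, 8 cysteine codons were followed by another cysteine codon after a gap of exactly a pair of codons, whereas Defa2 and Gm15292 held 0 such pairs. The first 55 codons, which hold most of the leader, were 89.7% to 92.7% identical between the kinds. The rest was 36.0% to 39.8% identical between the kinds and 94.6% to 97.3% identical among the 4 minus-strand genes. Defa2 and Gm15292 were 90.3% identical to each other in the first part and 69.9% in the rest.

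How far reads of each gene could be told from those of its neighbours was computed by looking up every stretch of its annotated transcript in the transcripts of all other genes. Of the 277 stretches of 150 bases in Defa2, 0 were found in no other gene, and the same held at 50 and 100 bases. Defa2 shared 195 of the 277 with Defa33, 129 with Defa20 and 47 with Defa32, and its coding sequence was 100% identical to that of Defa33. Gm7861 had 18 stretches of its own among 357 and shared 339 with Gm7849, whose coding sequence was 100% identical. Gm7849 was listed at 0 in all 16 libraries, so that the counts printed for Gm7861 can hold reads of either copy. For Defa29, Gm15292, AY761184 and Gm14851, 100% of the 150-base stretches were in no other gene, and at 50 bases the share was 44.4% to 66.5%. How the counting assigned reads that match several genes is not given in the sources used here, and values of Defa2 and Gm7861 are uncertain for that reason. The 4 minus-strand genes each overlap an annotated small nucleolar RNA gene on the same strand (Gm24568, Gm23561, Gm24829 and Gm22447), and each of those was listed at 0 in every library.

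**Figure D1:**
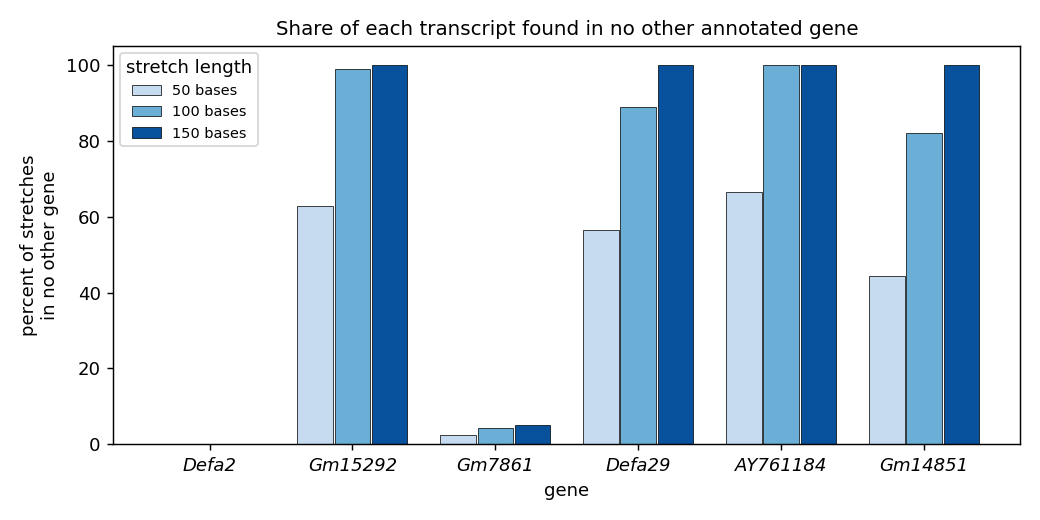
For each gene (horizontal axis), the percent of stretches of its annotated transcript that occur in no other annotated gene (vertical axis), with 1 bar for each stretch length of 50, 100 and 150 bases. Defa2 is at 0 at each length and Gm7861 at 2.4% to 5.0%, while the other 4 genes reach 100% at 150 bases.

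Whether these genes were indeed outside the panel measured by real-time PCR (Defa3, Defa5, Defa20, Defa21, Defa22, Defa23, Defa24 and Defa26) was examined by matching the primers of 9 assays, which also include one for cryptdins in general, to the annotated transcripts. Both primers of the Defa20 assay matched Defa2 without a mismatch, over a product of 86 bases, as they did Defa20, Defa32 and Defa33. The nearest assay for Gm15292 was that for Defa26, whose coding sequence is 97.9% identical. Its forward primer differed from Gm15292 by T20C, counted from 1 at the 5′ end of the primer, and its reverse primer had 0 mismatches. The fewest mismatches for any assay, summed over both primers, were 8 for Gm7861 and AY761184 and 9 for Defa29 and Gm14851. Only the letters were compared, and amplification was not measured. The stretches spanned by the primers are printed with the primer sites in capitals because they show which transcripts an assay could not separate.
Defa2, Defa20 assay: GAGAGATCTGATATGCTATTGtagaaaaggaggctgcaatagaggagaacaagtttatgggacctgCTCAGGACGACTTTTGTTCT
Gm15292, Defa26 assay: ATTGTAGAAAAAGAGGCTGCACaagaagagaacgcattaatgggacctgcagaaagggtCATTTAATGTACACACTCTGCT

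By name the 6 genes were thus outside the panel, and by sequence Defa2 was not.

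Between 13288018 and 22215382 reads were counted per library, and all 6 genes passed the filter on low counts that left 15267 genes for the fit. Levels are given as CPM, which are counts scaled to the size of the library, after TMM correction, and differences are log2 fold changes from a model fitted to all 16 libraries with edgeR. The deleted gene, Insr, was measured at 62.7 ± 10.1 CPM (SD, n = 6) in Control-STAM-INS and 67.2 ± 13.4 CPM (n = 6) in the libraries labelled as ieIRKO-STAM-INS. That difference was 0.10 on the log2 scale (SE 0.13, adjusted p = 0.805 by edgeR's quasi-likelihood test with Benjamini-Hochberg adjustment). The counts are over the whole gene and the whole wall, including cells in which Villin-Cre does not act, and do not single out the deleted part. They do not show the deletion, and each direction below that involves these libraries rests on their label. Insr was at 105.2 ± 12.3 CPM (n = 4) in Control-STAM-nonINS. Against that group, its log2 fold change was -0.75 (SE 0.14, adjusted p = 0.00275 by the same test) in Control-STAM-INS. It was -0.65 (SE 0.14, adjusted p = 0.00582 by the same test) in the libraries labelled as ieIRKO-STAM-INS. Relative to Control-STAM-INS, 6 of all tested genes were higher and 28 lower in these libraries by edgeR, against 65 higher and 58 lower by DESeq2.

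Defa2, a cryptdin, had the highest level of the 6. In Control-STAM-nonINS it was measured at 1410, 1726, 1398 and 971.3 CPM. In Control-STAM-INS it ranged from 1669 to 2925 CPM with a median of 2326, and in the libraries labelled as ieIRKO-STAM-INS from 694.2 to 1243 CPM with a median of 913.1. In Control-STAM-INS, 5 of 6 libraries lay above every Control-STAM-nonINS library, and all 6 lay above every library labelled as ieIRKO-STAM-INS. The fitted level was 1.65-fold higher with insulin (log2 fold change 0.72, SE 0.19) and, relative to Control-STAM-INS, 2.45-fold lower in the libraries labelled as ieIRKO-STAM-INS (log2 fold change -1.29, SE 0.17). Defa33, with the same coding sequence, was at 872.4 ± 122.6 (n = 4), 1358 ± 351 (n = 6) and 596.0 ± 151.1 CPM (n = 6) in the order of the groups above. Summed with the genes that share a 100-base stretch with it, Defa2 gave log2 fold changes of 0.62 (SE 0.20) and -1.16 (SE 0.18) for the same comparisons.

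Gm15292, the other gene of the cryptdin kind, was the least abundant, with 33 to 363 counts per library. Its level was 7.64, 9.64, 8.28 and 5.07 CPM in Control-STAM-nonINS. It ranged from 10.2 to 21.7 CPM around a median of 12.7 in Control-STAM-INS and from 2.03 to 5.52 CPM around a median of 3.59 in the libraries labelled as ieIRKO-STAM-INS. It was the only one of the 6 genes whose Control-STAM-INS libraries all lay above all Control-STAM-nonINS libraries, and it also had the steepest difference on the genotype label, 3.87-fold lower (log2 fold change -1.95, SE 0.25). Its 95% interval, -2.47 to -1.44, overlapped those of the other 5 genes.

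Gm7861, of the CRS kind, had the second highest level. It was measured at 913.7, 1345, 901.4 and 594.9 CPM in Control-STAM-nonINS, with 1294 to 2256 CPM and a median of 1840 in Control-STAM-INS. In the libraries labelled as ieIRKO-STAM-INS it ranged from 444.4 to 798.8 CPM with a median of 605.7. Control-STAM-nonINS replicate 2 lay among the insulin-treated controls and replicate 4 among the libraries labelled as ieIRKO-STAM-INS. The log2 fold change was 0.93 (SE 0.22) with insulin, the highest of the 6 genes, and -1.56 (SE 0.19) on the genotype label.

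The other 3 genes of the CRS kind had lower and similar levels. Defa29 was at 161.3, 212.7, 154.4 and 121.4 CPM in Control-STAM-nonINS, at 169.8 to 300.7 CPM (median 258.2) in Control-STAM-INS and at 72.3 to 128.8 CPM (median 102.2) in the libraries labelled as ieIRKO-STAM-INS. AY761184 was at 95.8, 175.4, 128.9 and 118.3 CPM in the first group, at 138.8 to 292.8 CPM (median 239.8) in the second and at 58.1 to 101.7 CPM (median 82.5) in the third. Gm14851 was at 115.6, 160.9, 106.2 and 72.1 CPM in the first group, at 159.3 to 279.7 CPM (median 177.3) in the second and at 65.6 to 108.5 CPM (median 91.1) in the third. For each of the 3, the highest Control-STAM-nonINS library was replicate 2 and overlapped Control-STAM-INS, and no Control-STAM-INS library overlapped those labelled as ieIRKO-STAM-INS. Replicates of a group differed by similar proportions for all 6 genes, with coefficients of variation between 17.2% and 34.6%.

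**Figure D2:**
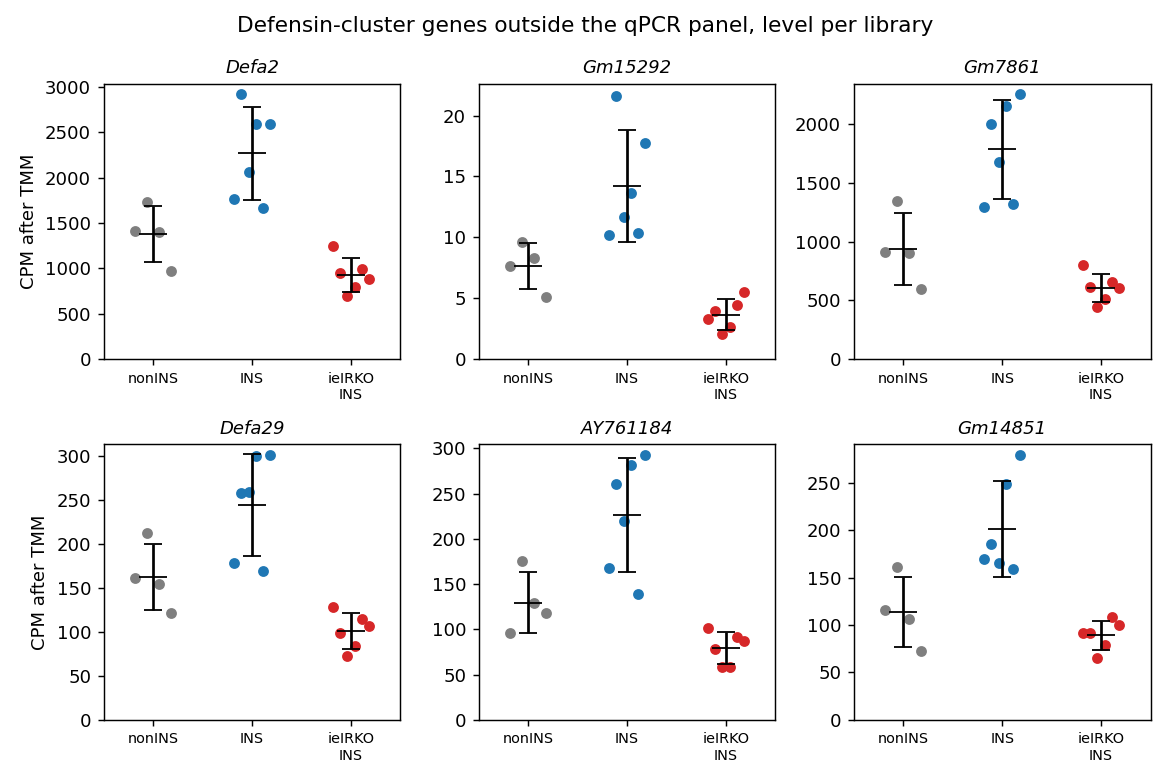
Level of each gene in CPM after TMM scaling (vertical axis, from 0) by group, with 4 libraries of Control-STAM-nonINS and 6 each of Control-STAM-INS and ieIRKO-STAM-INS. Points are libraries, and bars give the mean ± SD. The Control-STAM-INS libraries lie above all libraries labelled as ieIRKO-STAM-INS in each panel, while only Gm15292 separates Control-STAM-INS from Control-STAM-nonINS.

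Compared per kilobase of annotated exon, the order in Control-STAM-INS was Defa2 (5323 ± 1198 CPM per kb, SD, n = 6), Gm7861 (3529 ± 827.2), Gm14851 (573.4 ± 143.4), Defa29 (480.8 ± 113.2), AY761184 (450.6 ± 124.9) and Gm15292 (36.9 ± 11.9). The same order of means held in the libraries labelled as ieIRKO-STAM-INS, from 2173 ± 445.8 CPM per kb for Defa2 to 9.46 ± 3.28 for Gm15292 (n = 6 each), and in Control-STAM-nonINS, from 3231 ± 727.5 to 19.9 ± 4.98 (n = 4 each). Gm14851, Defa29 and AY761184 overlapped one another in every group, and Defa2 overlapped Gm7861 in both control groups. These overlaps are between mice, and within each library Defa2 lay above Gm7861. The model of Gm14851 holds 351 bases, which is its coding sequence alone, against 503 to 508 for the other 3 minus-strand genes, so that its value per kilobase is not on the same footing.

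The question behind Control-STAM-INS against Control-STAM-nonINS was what insulin treatment changes in the ileum of these mice. All 6 genes had higher fitted levels with insulin, by log2 fold changes of 0.59 (Defa29) to 0.93 (Gm7861), with a median of 0.82 against 0.00 over all genes tested. For 5 of the 6, all but Defa29, the adjusted p was under 0.05 in the higher direction, as for 3.73% of all tested genes. One of the 6, Gm15292, had no overlap between the groups, as 4.40% of all tested genes did in that direction. The counts of these genes were what selected them, and nothing is read from either share. The count of 5 fell to 1 without Control-STAM-nonINS replicate 1, 3 or 4 and to 3 without Control-STAM-INS replicate 2, 4 or 6, while the fitted differences stayed above 0. In bulk tissue, more RNA per Paneth cell and more Paneth cells cannot be told apart.

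ieIRKO-STAM-INS against Control-STAM-INS asked whether the insulin receptor of the epithelium is needed under insulin treatment. All 6 genes were lower in the libraries labelled as ieIRKO-STAM-INS, by 1.17 (Gm14851) to 1.95 (Gm15292) on the log2 scale, and the median log2 fold change was -1.41 against 0.02 over all genes tested. The adjusted p was under 0.05 in the lower direction for 6 of 6, as for 0.183% of all tested genes. That share is 28 of 15267 genes, and the 28 include these 6 and the panel, further cluster and Paneth cell genes called below. The groups did not overlap for 6 of 6, as for 0.406% of all tested genes. These genes were chosen from that comparison, which leaves both counts as a description. Insr was not lower in the libraries on which this direction rests.

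ieIRKO-STAM-INS against Control-STAM-nonINS shares its libraries with both comparisons above. The log2 fold changes ran from -1.06 (Gm15292, SE 0.27) to -0.35 (Gm14851, SE 0.20), with -0.71 (SE 0.22) for AY761184, -0.69 (SE 0.19) for Defa29, -0.63 (SE 0.21) for Gm7861 and -0.57 (SE 0.19) for Defa2. The adjusted p was under 0.05 for 4 of the 6 in the lower direction, as for 7.59% of all tested genes, the exceptions being Gm7861 and Gm14851. For 0 of the 6 were the groups free of overlap, as for 4.76% of all tested genes in that direction. The interval of Gm14851, -0.78 to 0.08, reached past 0. The count of 4 fell to 2 with upper-quartile scaling and to 2 without the filter on low counts. It fell to 1 without Control-STAM-nonINS replicate 2 or 3, and to 2 without Control-STAM-nonINS replicate 1, Control-STAM-INS replicate 3 or any one of the libraries labelled as ieIRKO-STAM-INS replicates 2 to 6.

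**Figure D3:**
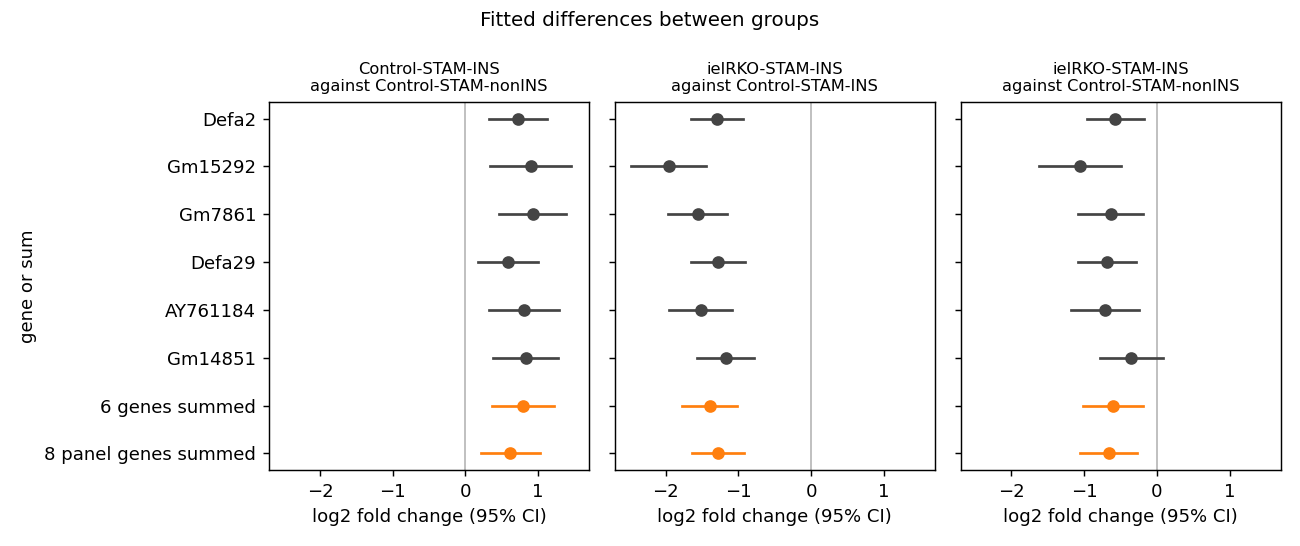
Fitted log2 fold change (horizontal axis, points) with its 95% confidence interval (lines) for each of the 6 genes, their sum and the sum of the 8 panel genes, in each of the 3 comparisons. All points lie right of 0 in the first comparison and left of 0 in the other two, and within each comparison the intervals of the 6 genes overlap.

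Added together, the 6 genes had a mean of 4740 ± 1062 CPM (SD, n = 6) in Control-STAM-INS, against 2729 ± 713.7 CPM (n = 4) in Control-STAM-nonINS and 1803 ± 358.2 CPM (n = 6) in the libraries labelled as ieIRKO-STAM-INS. The log2 fold changes of the sum were 0.80 (SE 0.20), -1.39 (SE 0.18) and -0.60 (SE 0.19) in the order of the comparisons above, beside 0.62 (SE 0.19), -1.28 (SE 0.17) and -0.66 (SE 0.19) for the sum of the 8 panel genes. Most of the sum of the 6 was Defa2 and Gm7861, whose values are uncertain, at means of 2268 and 1786 CPM in Control-STAM-INS. The other 4 genes summed, a sum added after seeing the data, gave 0.73 (SE 0.20), -1.33 (SE 0.18) and -0.60 (SE 0.19). As a percent of the panel sum, the 6 genes came to 35.8 ± 2.56 (n = 4), 40.9 ± 2.86 (n = 6) and 37.9 ± 0.637 (n = 6) in the order of the groups. Defa2, which shares stretches with the panel gene Defa20, had group means of 18.2%, 19.6% and 19.5% of the panel. Its highest Control-STAM-nonINS library, at 18.7%, lay just below its lowest Control-STAM-INS library, at 18.8%. The group means of Defa29 were the closest to one another, at 2.15 ± 0.117%, 2.11 ± 0.275% and 2.11 ± 0.0998%. AY761184 stood at 1.73 ± 0.365%, 1.94 ± 0.256% and 1.66 ± 0.127%. Gm7861 stood at 12.2 ± 1.71% (n = 4), 15.4 ± 1.66% (n = 6) and 12.7 ± 0.238% (n = 6), and the lowest Control-STAM-INS library met the highest library labelled as ieIRKO-STAM-INS at 13.15%. Gm15292 stood at 0.101 ± 0.00844%, 0.121 ± 0.0164% and 0.0767 ± 0.0238%. Gm14851 instead had its highest mean in the libraries labelled as ieIRKO-STAM-INS, at 1.90 ± 0.253%, against 1.48 ± 0.199% and 1.76 ± 0.344%.

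**Figure D4:**
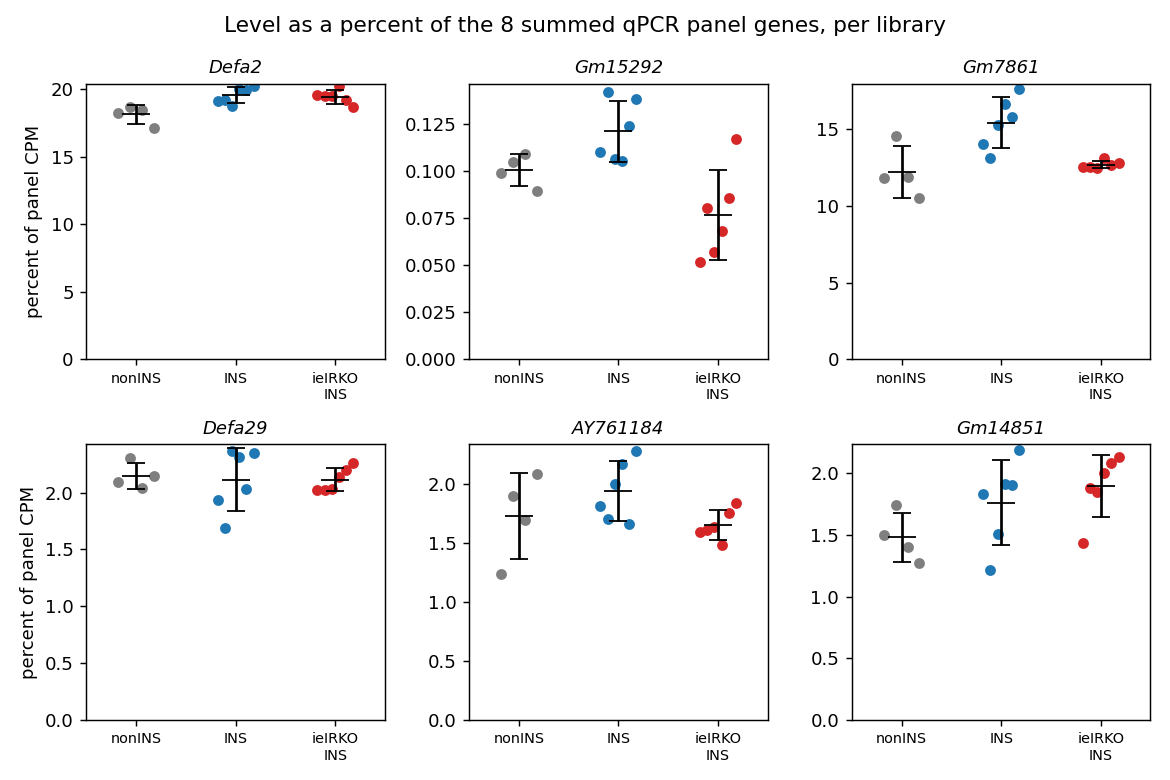
Level of each gene as a percent of the summed CPM of the 8 panel genes (vertical axis, from 0) per library, in the same 3 groups. Points are libraries, and bars give the mean ± SD. Defa2 stays between 17.2% and 20.3%, while Gm7861 is higher in Control-STAM-INS than in either of the other groups by its mean.

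The panel genes themselves, most of them classical cryptdins that the study had picked for assay in this setting, are no independent evidence of the direction. With insulin, 6 of 8 rose, beside 3.73% of all tested genes, with the highest log2 fold change for Defa26 (0.99, SE 0.24, adjusted p = 0.013) and the lowest for Defa22 (0.39, SE 0.18, adjusted p = 0.19). In the libraries labelled as ieIRKO-STAM-INS, 8 of 8 fell against Control-STAM-INS, beside 0.183% of all tested genes, from -1.72 (Defa26, SE 0.21, adjusted p = 0.000402) to -0.93 (Defa5, SE 0.13, adjusted p = 0.00113). Against Control-STAM-nonINS, 6 of 8 fell, beside 7.59% of all tested genes. The count of 6 that rose was 3 without Control-STAM-nonINS replicate 1 and 2 without replicate 3 or 4 of that group, and the count of 6 that fell against Control-STAM-nonINS was 3 in a fit of those 2 groups alone and 3 without replicate 1, 2 or 3 of that group or ieIRKO-STAM-INS replicate 2, 3, 4 or 6. Of the 22 further genes of the cluster in the tables, 11 were at 0 in every library and 10 passed the filter. The coding genes among those 11 were Gm7849, Defa25 and Defa31, and the rest were small nuclear or nucleolar RNA genes. With insulin, 5 of the 10 rose, again beside 3.73% of all tested genes, led by Defa35 (log2 fold change 0.92, SE 0.23, adjusted p = 0.0177). Gm15293 had the lowest value of the 10 in that comparison (log2 fold change -0.05, SE 0.21, adjusted p = 0.922). On the genotype label, 5 of the 10 fell, beside 0.183%, with the lowest value for Defa17 (log2 fold change -1.29, SE 0.20, adjusted p = 0.00328), and 1 of the 10, Gm15293, fell against Control-STAM-nonINS (log2 fold change -0.79, SE 0.21, adjusted p = 0.0182), a share near the 7.59% of all tested genes. These adjusted p-values are from edgeR's quasi-likelihood test over all genes tested. The count of 5 that rose with insulin was 0 without Control-STAM-nonINS replicate 1 or 3, 1 without Control-STAM-nonINS replicate 4 or Control-STAM-INS replicate 4, 2 without Control-STAM-INS replicate 2 or 3, and 3 without Control-STAM-INS replicate 6 or ieIRKO-STAM-INS replicate 2 or 5. The same count was 3 without the filter on low counts. The count of 5 that fell was 10 of 10 by DESeq2 and 3 without Control-STAM-INS replicate 4. The count of 1 against Control-STAM-nonINS was 2 by DESeq2, 0 without replicate 2 of that group and 2 without its replicate 4 or ieIRKO-STAM-INS replicate 1.

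Paneth cell genes outside the alpha-defensins were listed as 11 products and 11 regulators or surface genes, and all 22 were tested. On the genotype label, 4 of the 11 products fell, beside 0.183% of all tested genes. They were Lyz1, the lysozyme of Paneth cells (log2 fold change -2.31, SE 0.18, adjusted p = 1.25e-06), Clps, a cofactor of lipase also known from the pancreas (-1.75, SE 0.21, adjusted p = 0.000402), Ang4, an antimicrobial ribonuclease (-1.64, SE 0.20, adjusted p = 0.000402), and Itln1, a lectin that binds microbial sugars (-1.36, SE 0.25, adjusted p = 0.0234). None of the 11 regulators or surface genes passed the test there by edgeR, and their log2 fold changes lay between -0.08 (Fzd5) and 0.37 (Gfi1 and Nod2), with 0 of 11 at an unadjusted p under 0.05 and 0 of 11 by DESeq2. Mmp7, whose product cuts the cryptdin precursors, had a log2 fold change of -0.05 (SE 0.14, adjusted p = 0.922). With insulin, 2 of the 11 products rose, beside 3.73% of all tested genes, namely Itln1 (log2 fold change 1.39, SE 0.29, adjusted p = 0.00615) and Habp2 (0.95, SE 0.21, adjusted p = 0.00722). Lyz1 did not pass the test with insulin (0.09, SE 0.20, adjusted p = 0.832). With insulin, 3 of the 11 regulators or surface genes fell, as did 6.76% of all tested genes. They were Ephb3, a receptor that positions cells in the crypt (-0.71, SE 0.14, adjusted p = 0.00407), Sox9 (-0.58, SE 0.14, adjusted p = 0.0144) and Atoh1 (-0.56, SE 0.16, adjusted p = 0.0367), transcription factors of the crypt and of secretory cells. Of the 11, 3 had log2 fold changes above 0, the highest for Gfi1 (0.80), and 0 passed the test in that direction. The 6 genes had higher levels in the same comparison.

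Markers of other cells of the wall were summed per library. The 6 B and plasma cell markers came to 959.2 to 1541 CPM in Control-STAM-INS, 717.6 to 1771 CPM in Control-STAM-nonINS and 1655 to 3115 CPM in the libraries labelled as ieIRKO-STAM-INS, and their part in the lower levels of the 6 genes there was not tested. The sum of the 7 enterocyte markers ranged from 15920 to 26090 CPM in Control-STAM-nonINS, from 15960 to 24910 CPM in Control-STAM-INS and from 8501 to 24700 CPM in the libraries labelled as ieIRKO-STAM-INS, and their part was not tested. In the libraries labelled as ieIRKO-STAM-INS all 7 had log2 fold changes below 0 against Control-STAM-INS, from -0.64 to -0.20, and 0 of 7 passed the test by edgeR, with 0 at an unadjusted p under 0.05 and 0 by DESeq2. Against Control-STAM-nonINS, 1 of 7 fell, namely Fabp6, which binds bile acids in ileal enterocytes (log2 fold change -0.59, SE 0.18, adjusted p = 0.0338 by edgeR), beside 7.59% of all tested genes. Goblet cell, crypt stem cell and smooth muscle markers overlapped between all groups in their sums. The 4 neutrophil markers, of cells that carry alpha-defensins in other species, summed to at most 1.09 CPM in any library. The 4 Paneth cell markers (Lyz1, Ang4, Itln1 and Mmp7), all of them detected and all on the list of products above, summed to 2218 to 3825 CPM in Control-STAM-nonINS, 2825 to 4671 CPM in Control-STAM-INS and 715.8 to 1328 CPM in the libraries labelled as ieIRKO-STAM-INS. The sum was thus lowest in the libraries in which the 6 genes were lowest, and its part in their levels was not tested. Most of the sum was Lyz1, at 2686 ± 654.7 CPM (n = 6) in Control-STAM-INS and 542.3 ± 121.2 CPM (n = 6) in the libraries labelled as ieIRKO-STAM-INS. Mmp7 ranged from 71.8 to 122.3 CPM and from 84.3 to 110.6 CPM in the same groups. The 7 products that did not pass the test between these groups had log2 fold changes from -0.80 (Habp2, adjusted p = 0.0971) to 0.17 (Reg3g, adjusted p = 0.883).

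The genes whose levels moved most closely with the sum of the 6 from mouse to mouse were looked for outside the defensin window, over 16 libraries after the mean of each group was subtracted and among 9421 genes with a mean of 10 CPM or more. They were Lyz1 (Pearson's r = 0.956, Spearman's rho = 0.938), Clps (r = 0.951, rho = 0.953), Mptx2 (r = 0.881, rho = 0.856), Itln1 (r = 0.871, rho = 0.918) and Ang4 (r = 0.854, rho = 0.871). All 5 were on the list of Paneth cell products. The genes were measured in the same libraries, so that depth and tissue makeup, which differ between libraries, could bear on all of them. Their part in these correlations was not tested. Among the 6 genes themselves, r lay between 0.696 and 0.961 over their 15 pairs, with a median of 0.818. The group means of the 5 genes did not all follow those of the 6. Mptx2, a mucosal pentraxin, was at 103.3 ± 31.2 (n = 4), 93.6 ± 27.9 (n = 6) and 84.8 ± 18.7 CPM (n = 6), and its log2 fold change on the genotype label was -0.14 (SE 0.22, adjusted p = 0.845). Clps was at 22.0 ± 7.91 (n = 4), 33.3 ± 5.57 (n = 6) and 9.85 ± 2.64 CPM (n = 6).

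**Figure D5:**
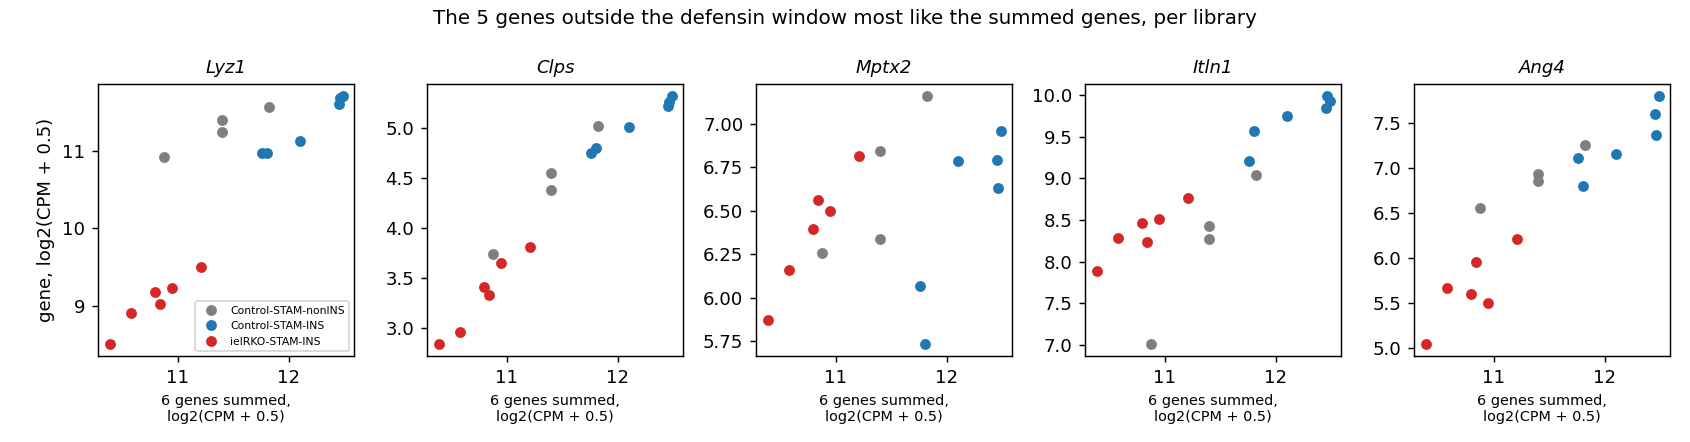
Level of Lyz1, Clps, Mptx2, Itln1 and Ang4 (vertical axes, log2 of CPM + 0.5) against the sum of the 6 genes (horizontal axes, same scale) in the 16 libraries, coloured by group. After the mean of each group is subtracted, Pearson's r lies between 0.854 for Ang4 and 0.956 for Lyz1.

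RefSeq promoters were at hand for 3 of the 6 genes, Defa2, Gm7861 and Gm14851, as 250 bases before to 50 bases after the annotated start in GRCm38.p6. The letters CTTTGA and CTTTGT of the TCF/LEF factors, which carry Wnt signals in crypts, GTAAACA of the FOXO factors, CAGCTG of the E-box and TATAAA were searched on both strands. CTTTGA occurs in 5257 of all 32851 RefSeq promoters of that length, CTTTGT in 18.7%, GTAAACA in 3.6%, CAGCTG in 16.3% and TATAAA in 13.6%. Defa2 held CTTTGA at 2 places and CTTTGT at 1, all on the strand opposite to the gene, while Gm7861 and Gm14851 held none of these and shared only the TATAAA with it. Among all 16 promoters of the defensin cluster at hand, 13 held CTTTGA, 9 held CTTTGT and 15 held TATAAA. The 150 bases that end with the TATAAA are printed for the 3 genes to show where they differ, with the motifs in capitals.
Defa2, chr8:21378342-21378491, plus strand: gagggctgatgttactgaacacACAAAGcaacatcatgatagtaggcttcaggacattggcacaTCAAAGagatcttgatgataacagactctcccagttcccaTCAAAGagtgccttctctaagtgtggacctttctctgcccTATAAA
Gm7861, chr8:21594534-21594683, minus strand: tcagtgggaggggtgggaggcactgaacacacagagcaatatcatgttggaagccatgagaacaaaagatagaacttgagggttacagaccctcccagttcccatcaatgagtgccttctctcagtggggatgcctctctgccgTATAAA
Gm14851, chr8:21096119-21096268, minus strand: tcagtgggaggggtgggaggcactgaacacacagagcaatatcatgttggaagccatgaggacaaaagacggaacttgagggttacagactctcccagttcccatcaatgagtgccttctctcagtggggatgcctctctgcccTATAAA

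The stretch of Gm7861 was 96.7% identical to that of Gm14851 and 70.3% to that of Defa2. At the TCAAAG of Defa2 nearest the TATAAA, both Gm7861 and Gm14851 differed by A5T, counted from 1 at the first letter of TCAAAG as printed. At the ACAAAG of Defa2, both differed by A4G, counted in the same way. A match of letters is no evidence of binding, and its absence from this window says nothing of the factor.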

How the data were processed

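Ileal total RNA from 16 STAM mice was made into libraries with a strand-keeping kit and sequenced on a NovaSeq. The authors used CLC Genomics Workbench for alignment to the GRCm38 genome, and deposited whole-number read counts per gene for each mouse, without normalization. The handling of reads with several matches and the use of strand in counting are not given in the sources used here. All 16 libraries were assigned to groups by their labels.

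Genes were filtered by filterByExpr (minimum count 10, minimum total 15), scaled by TMM and fitted over the 3 groups with the robust quasi-likelihood model of edgeR 4.0.16 in R 4.3.3, with Benjamini-Hochberg adjustment over 15267 genes. A standard error is the log2 fold change divided by the square root of F, and intervals are 95%. DESeq2 1.42.0 was an alternative. The method was tested on simulated data. Coordinates and transcripts came from GENCODE M21, which matched 97.5% of gene names, promoters from RefSeq, and primers from the study's supplement. Coding sequence was taken as the longest open reading frame of the longest transcript. The 6 genes and all lists were chosen with earlier results of these data known. Named genes are the 6 genes, Insr, genes sharing sequence with them, extremes of the lists and the 5 genes with the closest levels. Not every extreme of every list was named. Mmp7 and the list members that passed the test were named after their values were seen. Counts give whole reads without molecular identifiers, and no interval for counting error alone was used.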

Additional observations from a re-analysis of the deposited data

How the results depend on the processing

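The alternatives were upper-quartile scaling, DESeq2, no low-count filter, a minimum of 10 counts per library throughout, fits restricted to the 2 groups compared, defensin-cluster genes kept out of library sizes, the replicate number as a block, each library left out, and sums with genes that share a 100-base stretch. The sum of the 4 genes with stretches of their own was added after seeing the data. All 507 fitted log2 differences of the 6 genes and their sum kept their direction and moved by less than 1 SD between replicates. Part of the 507 could hardly move. Those are fits without a library from outside the comparison, and sums for Gm7861 and AY761184, which gained no counts from sharing genes. With each library left out, the sum gave 0.65 to 0.97 with insulin, -1.49 to -1.32 on the genotype label and -0.74 to -0.42 against Control-STAM-nonINS. The least abundant of the 6 genes, Gm15292, had 33 to 363 counts per library and the widest standard errors of the 6 in each comparison, and the effect of depth on the calls was not tested.

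Counts of calls moved more, and the cause was not tested. With insulin, the 5 further cluster genes called became 3 without the filter. On the genotype label, DESeq2 called 123 genes in place of 34 and 10 further cluster genes in place of 5. Against Control-STAM-nonINS, the 4 of the 6 genes called became 2 with upper-quartile scaling and 2 without the filter, DESeq2 called 2 further cluster genes in place of 1, and a fit of only those groups called 1038 genes in place of 2036 and 3 panel genes in place of 6. With each library left out, insulin called 824 to 1877 genes in place of 1602, 1 to 6 of the 6 genes, 2 to 6 panel genes and 0 to 5 further cluster genes. On the genotype label, 29 to 50 genes and 3 to 7 further cluster genes were called. Against Control-STAM-nonINS, 1093 to 2274 genes, 1 to 5 of the 6 genes, 3 to 6 panel genes and 0 to 2 further cluster genes were called. The counts of 6 of 6 genes and 8 of 8 panel genes on the genotype label were the same under every alternative run. Genes for which DESeq2 gave no adjusted p were left out of its counts.

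Groups shared replicate numbers, which did not meet the criterion for pairing (every same-numbered pair over 0.1), and no label says that a number marks a shared litter or batch. Deviations of same-numbered libraries correlated at -0.092 to 0.248 over 14 pairs, 5 of them over 0.1, and a library correlated best with its own number in 1 of 4 numbers between the control groups, 0 of 4 between Control-STAM-nonINS and ieIRKO-STAM-INS and 3 of 6 between Control-STAM-INS and ieIRKO-STAM-INS. With the replicate block, 1397, 30 and 1615 genes were called in the order of the comparisons. The block left 4, 6 and 1 of the 6 genes, 4, 8 and 3 panel genes, and 2, 2 and 1 further cluster genes, and the sum of the 6 genes differed by 0.81, -1.39 and -0.58 on the log2 scale.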
